A study of Homo sapiens with 2 samples.

Results

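GTF2I was examined together with its duplicated copies, as the exon rows that lie in 3 windows of chromosome 7 and on the strand of each window. The windows held 79 of the 239322 rows, of which 34 lay in the GTF2I window, 23 in a copy on the plus strand and 22 in a copy on the minus strand. Coordinates of rows are those of hg19, the build that the submitters' processing notes name. The windows had been picked because rows in them showed the largest decreases between these same libraries, so the decreases of single rows are given as a description and nothing was tested with them. The files name no genes, so the rows were linked to genes by the lengths and order of their exons.

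RNA came from Huh-7, a line of human hepatocellular carcinoma cells, in an experiment on altered splicing. Control cells received the solvent alone, 0.1% DMSO, and treated cells received the compound BS008 at 0.1 mM, both for 24 h. Each condition is 1 library, so no value has a replicate check, no p-value is given, and a difference between cultures or library preparations cannot be told apart from the treatment. Reads on all exon rows summed to 55476654 in control and 53578432 in BS008 cells, and a count of 0 would allow up to 3 reads. Intervals in brackets are 95% intervals for read counting only.

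GTF2I encodes TFII-I, a transcription factor that binds initiator elements and E-boxes and that relays signals from the cell surface to the nucleus after phosphorylation by kinases such as BTK. The protein is built around a series of similar helix-loop-helix-like segments, the I-repeats, and several of its forms arise by alternative splicing near the start of the message. The gene lies at the edge of the Williams-Beuren syndrome region on the long arm of chromosome 7. Large duplicated blocks flank that region, and they carry pseudogenes that repeat the later exons of GTF2I. RNA from any of these copies can therefore give reads with almost the same letters.

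Read along the transcript, the first 12 rows of GTF2I had no counterpart in either copy, and the following 22 rows did. Each of the latter was joined with the rows of the copies that had the same length, within 3 bases, and the same order, to give 22 matched sets numbered from 1 at the GTF2I side nearest the start of the transcript. Sets 1 to 21 had all 3 copies. Set 22, the last exon with the untranslated end, had 2 copies inside the windows, since the row of the minus-strand copy crosses the edge of its window. In GENCODE release 29, whose build is GRCh38, transcript GTF2I-212 has an exon of equal length and order for 31 of the 34 GTF2I rows. The same holds for 21 of 23 rows of the plus-strand copy with GTF2IP4-202, and for 20 of 22 rows of the minus-strand copy with GTF2IP1-210. The copies are called GTF2IP4 and GTF2IP1 below on that ground only. Distances between neighbouring rows equalled those between the exons in 20 of 20 pairs for GTF2IP4, in 17 of 29 for GTF2I and in 9 of 18 for GTF2IP1, so the sequence in hg19 may differ from the GRCh38 sequence printed here.

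The exons of the matched sets were almost free of differences between the copies. Over the 20 sets that could be aligned without a gap, which hold 1911 bases, 15 sets were identical in all 3 copies and no 2 copies of a set differed by more than 1 base. GTF2I differed from GTF2IP4 at 5 bases in all and from GTF2IP1 at 3, and the 2 pseudogenes differed from each other at 2. The exons of sets 10, 11, 13, 14 and 15 are printed because their GTF2I or GTF2IP1 rows had the 5 lowest log2 ratios of all members. Each is the same in the 3 copies, and no base is capitalised for that reason. Sequences are from GRCh38, written from the start to the end of the exon in the direction of transcription.
Set 10, GTF2I copy, chr7:74745883-74745941 (+): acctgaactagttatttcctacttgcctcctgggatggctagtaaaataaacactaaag
Set 11, GTF2I copy, chr7:74746337-74746411 (+): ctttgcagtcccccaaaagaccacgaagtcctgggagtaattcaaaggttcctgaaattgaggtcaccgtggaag
Set 13, GTF2I copy, chr7:74749025-74749090 (+): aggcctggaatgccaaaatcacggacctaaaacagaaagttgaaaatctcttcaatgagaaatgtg
Set 14, GTF2I copy, chr7:74749268-74749451 (+): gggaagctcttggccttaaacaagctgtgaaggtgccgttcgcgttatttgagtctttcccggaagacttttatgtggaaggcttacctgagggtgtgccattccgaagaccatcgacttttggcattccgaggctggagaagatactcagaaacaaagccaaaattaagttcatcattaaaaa
Set 15, GTF2I copy, chr7:74751361-74751416 (+): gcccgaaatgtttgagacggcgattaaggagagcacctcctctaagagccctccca

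Set 9 is the only one of sets 9 to 16 whose copies differ, and set 20 is shown as a set with a difference nearer to the end of the transcript. Capitals mark the base that is not the same in all copies.
Set 9, GTF2I, chr7:74744758-74744941 (+): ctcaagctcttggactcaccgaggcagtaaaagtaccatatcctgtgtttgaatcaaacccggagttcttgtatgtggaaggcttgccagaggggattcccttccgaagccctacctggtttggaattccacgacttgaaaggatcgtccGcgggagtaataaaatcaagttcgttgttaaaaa
Set 9, GTF2IP4, chr7:73191371-73191554 (+): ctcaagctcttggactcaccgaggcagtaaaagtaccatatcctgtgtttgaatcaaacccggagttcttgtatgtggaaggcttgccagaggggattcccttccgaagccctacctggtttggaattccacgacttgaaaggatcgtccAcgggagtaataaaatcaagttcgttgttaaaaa
Set 9, GTF2IP1, chr7:75201121-75201304 (-): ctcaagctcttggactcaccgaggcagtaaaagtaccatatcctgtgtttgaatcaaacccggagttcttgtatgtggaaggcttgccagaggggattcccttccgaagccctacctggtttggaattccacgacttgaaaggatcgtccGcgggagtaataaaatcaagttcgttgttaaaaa
Set 20, GTF2I, chr7:74756820-74756861 (+): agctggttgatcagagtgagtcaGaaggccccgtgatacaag
Set 20, GTF2IP4, chr7:73203423-73203464 (+): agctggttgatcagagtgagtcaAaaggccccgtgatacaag
Set 20, GTF2IP1, chr7:75189215-75189256 (-): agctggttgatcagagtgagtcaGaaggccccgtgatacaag

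The rows without a copy carry the alternative exons. Among the GENCODE transcripts of GTF2I, GTF2I-212 holds both an exon of 60 bases and one of 63 bases, GTF2I-215 holds only the one of 63, GTF2I-221 only the one of 60, and GTF2I-218 neither. Both exons are all coding and are printed because these forms differ in them. Their rows count reads on each exon alone, so which of the forms were present was not measured.
GTF2I alternative exon of 60 bases, chr7:74714857-74714916 (+): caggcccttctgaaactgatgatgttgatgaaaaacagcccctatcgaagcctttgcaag
GTF2I alternative exon of 63 bases, chr7:74718879-74718941 (+): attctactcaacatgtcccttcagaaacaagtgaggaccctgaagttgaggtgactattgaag

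Fewer reads were counted on GTF2I in BS008 than in control cells wherever no copy exists. The 12 rows without a copy summed to 4946 reads in control and 2385 in BS008 cells, a log2 ratio of -1.00 (-1.07 to -0.93) on CPM, the read counts scaled to a common library total. Every one of the 12 rows was lower, with log2 ratios from -1.54 to -0.58 and a median of -0.88, where 0.5 CPM is added to both values of a single row. Only 1 of the 12 was at least 2-fold lower on that scale, as were 3.79% of all rows of the files with at least 10 reads in either library. With 0.1 CPM added instead, the alternative exons of 60 and 63 bases also passed 2-fold, at -1.26 and -1.08. At that setting 11189 of the 131330 rows of the files were at least 2-fold lower. In RNA of a whole culture, fewer cells that make the transcript and less of it in each cell cannot be told apart.

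The first row, 74072030 to 74072394, had 502 reads in control and 149 in BS008 cells. Its log2 ratio, -1.54, was the lowest of the 12. It held 10.1% (9.34 to 11.0%) of the reads on the 12 rows in control and 6.25% (5.34 to 7.29%) in BS008 cells and was the only one of the 12 rows whose share had intervals that did not overlap. This row of 365 bases has no exon of equal length in GTF2I-212. Without it the other 11 rows gave a log2 ratio of -0.94.

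The second row, 74103458 to 74103561, had 186 and 111 reads (log2 ratio -0.58), the smallest decrease. In RPKM, which scales reads to the length of the row and to the library total, it was at 32.2 in control and 19.9 in BS008 cells. The row of 139 bases that follows, 74105305 to 74105443, had 483 and 268 reads, and the one of 135 bases, 74113291 to 74113425, had 388 and 208. These 3 rows, next to each other in the transcript, had the smallest decreases of the 12.

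The remaining rows without a copy, apart from the alternative exons, lay close together. The row of 184 bases, 74114577 to 74114760, had 502 reads in control and 242 in BS008 cells (log2 ratio -0.93). The row of 29 bases, 74114936 to 74114964, had 372 and 187 (-0.85), and the row of 55 bases, 74119496 to 74119550, had 463 and 230 (-0.88). On the row of 44 bases, 74120721 to 74120764, 553 and 280 reads were counted (-0.87). The row of 78 bases, 74125363 to 74125440, had 591 and 286 (-0.93), and that of 172 bases, 74131214 to 74131385, had 610 and 298 (-0.92). The row of 172 bases has no exon of equal length in GTF2I-212. For each of these 6 rows the intervals of its share of the reads overlapped.

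The 60-base alternative exon had the lowest RPKM of the 12 rows in both libraries. It had 55 reads in control and 19 in BS008 cells at 74129177 to 74129236, which is 16.5 and 5.91 RPKM, and the log2 ratio of the reads without the added 0.5 CPM had an interval from -2.32 to -0.71. Its share of the reads on the 12 rows was 1.11% in control and 0.80% in BS008 cells, and the intervals overlap. The 63-base exon, at 74133198 to 74133260, had 241 and 107 reads, or 69.0 and 31.7 RPKM. Its share was 4.87% and 4.49%, again with overlapping intervals. Overlap of intervals is not a test, so a difference in the use of either alternative exon was not tested. The plot of shares over the 12 rows shows overlapping intervals for all but the first row.

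**Figure D1:**
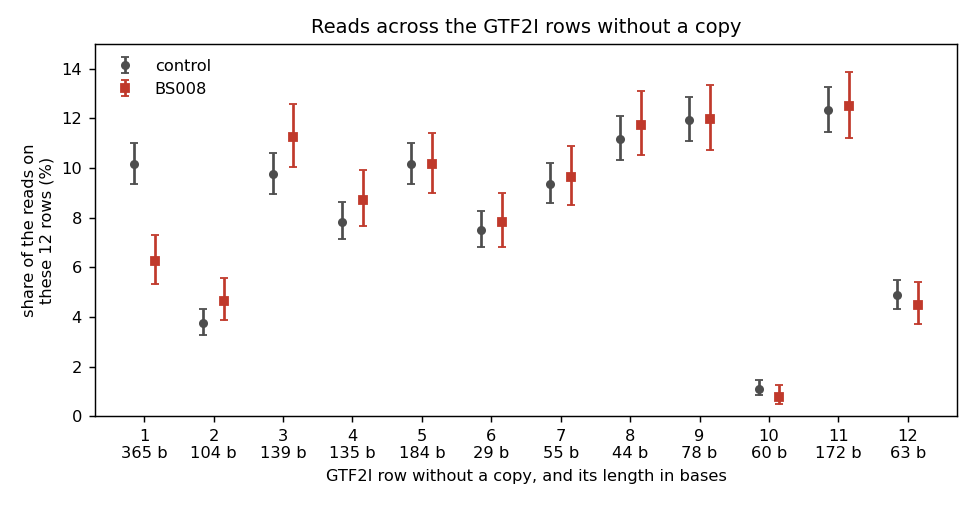
Share of the reads on the 12 GTF2I rows without a copy (y axis, percent) for each row in transcript order with its length in bases (x axis), in the control and the BS008 library, with 95% Wilson intervals for counting error. The first row went from 10.1% to 6.25%, while the 60-base and the 63-base alternative exons had overlapping intervals.

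Summed over the copies, the duplicated exons also had fewer reads in BS008 than in control cells. The 22 matched sets held 34860 reads in control and 18295 in BS008 cells, a log2 ratio of -0.88 (-0.91 to -0.85). With 0.5 CPM added, all 22 sums were lower, from -1.15 to -0.43 with a median of -0.85. Of these, 2 (9.09%) were at least 2-fold lower, beside 3.79% of all exon rows with at least 10 reads in either library. The difference between matched sets and rows without a copy was 0.12 on the log2 scale with these classes, and their intervals do not overlap. Classed by exact length alone, 65 rows were matched (26037 and 13242 reads, log2 ratio -0.93) and 11 were not (9265 and 4899 reads, -0.87), and the difference was -0.056 (-0.11 to 0.002). That rule leaves the last GTF2I row of 1911 bases unmatched, since the copy has 1912, and matches the 184-base and 29-base rows near the start to exons they do not correspond to. The sign of the difference thus depended on how the rows were matched.

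Single rows behaved otherwise. Of the 79 rows, 78 had at least 10 reads in either library, 18 of these were at least 2-fold lower in BS008 cells and 8 at least 2-fold higher. Over all 131330 rows of the files with that many reads, 3.79% were at least 2-fold lower and 3.73% at least 2-fold higher, values set beside the members without a reading, since the windows were chosen on this contrast. In the GTF2I window 10 of 34 rows were at least 2-fold lower and 0 higher. In GTF2IP4, 3 of 22 were lower and 8 higher, and in GTF2IP1, 5 of 22 were lower and 0 higher. Summed by window, GTF2I had 22376 and 9130 reads (log2 ratio -1.24), GTF2IP4 had 6308 and 8275 (0.44) and GTF2IP1 had 11228 and 3331 (-1.70).

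**Figure D2:**
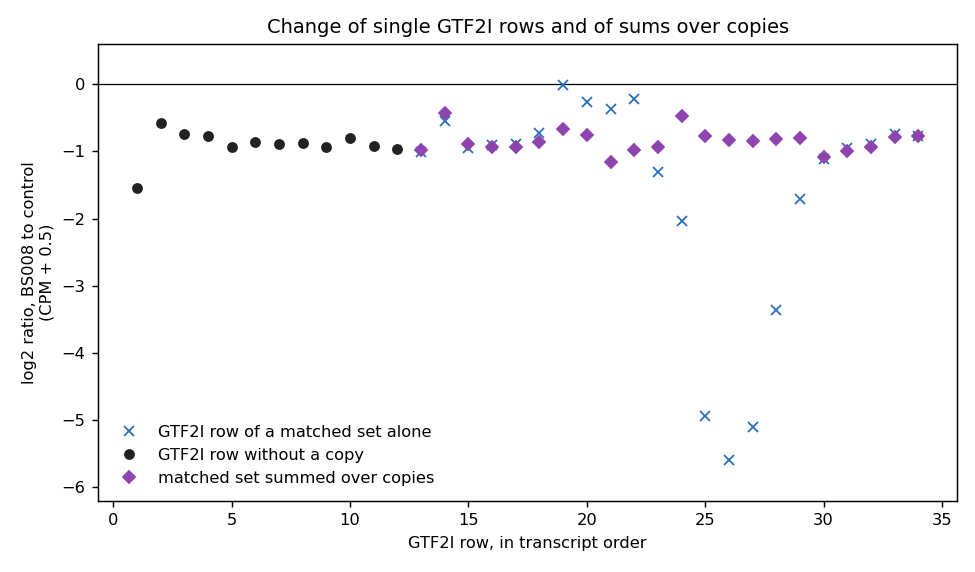
Log2 ratio of BS008 to control (y axis, CPM with 0.5 added) for the 34 GTF2I rows in transcript order (x axis): rows without a copy (circles), rows of a matched set taken alone (crosses), and the same sets summed over the copies (diamonds). The crosses reach -5.59, while all the diamonds lie between -1.15 and -0.43 and all the circles between -1.54 and -0.58.

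The most negative GTF2I and GTF2IP1 rows lay in a run of 8 neighbouring sets. GTF2I rows also departed from the sum in sets outside it, as in set 17 (log2 ratio -1.70 against -0.79) and set 7 (-0.01 against -0.67). The sets were divided, after their values had been seen, by whether the share of reads on GTF2IP4 rose by more than 20 percentage points, which picked sets 9 to 16. No set lay close above that limit. The sets at the ends of the run rose by 61.1 and 58.4 points, as set 9 went from 3.29% to 64.4% on GTF2IP4 and set 16 from 3.36% to 61.8%. Of their neighbours outside the run, set 8 went from 2.17% to 0.88% and set 17 from 7.05% to 21.0%, a rise of 13.9 points.

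In sets 9 to 16 the 3 copies together had 11652 reads in control and 5974 in BS008 cells (log2 ratio -0.91; -0.96 to -0.87). GTF2I held 5675 of these in control and 587 in BS008 cells, which is 48.7% (47.8 to 49.6%) and 9.83% (9.10 to 10.6%). GTF2IP1 held 5763 and 424, or 49.5% (48.6 to 50.4%) and 7.10% (6.47 to 7.78%). GTF2IP4 went the other way, from 214 to 4963 reads, or from 1.84% (1.61 to 2.10%) to 83.1% (82.1 to 84.0%). GTF2IP4 had the fewest reads of the 3 copies in the control sum and the most in the BS008 sum.

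**Figure D3:**
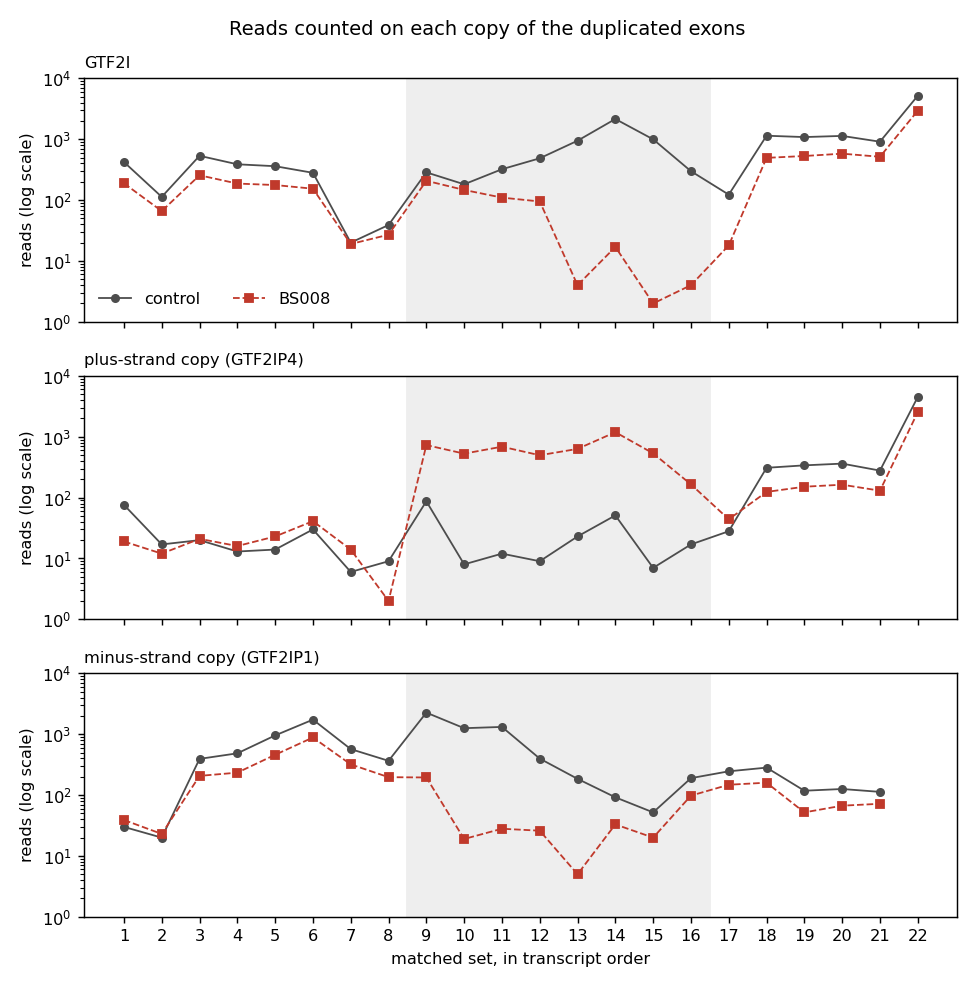
Reads (y axis, log scale) on the GTF2I, GTF2IP4 and GTF2IP1 rows of the 22 matched sets in transcript order (x axis), in control (circles) and BS008 cells (squares); grey marks sets 9 to 16, and set 22 has no GTF2IP1 row inside the window. Inside the grey area GTF2IP4 went from 214 to 4963 reads in sum, GTF2I from 5675 to 587 and GTF2IP1 from 5763 to 424.

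The 3 rows with the largest fall of the GTF2I share lie next to each other. On the 184-base exon of set 14, at 74163605 to 74163788, GTF2I had 2154 reads in control and 17 in BS008 cells, the lowest log2 ratio of all members (-5.59). The GTF2IP4 row of that exon, 72609919 to 72610102, had 51 and 1190, and the GTF2IP1 row, 74612335 to 74612518, had 92 and 33. Their sum went from 2297 to 1240 (log2 ratio -0.83). The GTF2I row alone thus changed far more than the exon did over its copies.

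Set 15, an exon of 56 bases, had 998 and 2 reads on GTF2I, 7 and 534 on GTF2IP4, and 52 and 20 on GTF2IP1. With a sum of 1057 and 556, its log2 ratio was -0.85. Set 13, an exon of 66 bases, had 947 and 4 reads on GTF2I, 23 and 632 on GTF2IP4, and 185 and 5 on GTF2IP1, and the sum of 1155 and 641 gave -0.77. In these 3 sets GTF2I held 82.0% to 94.4% of the reads in control and 0.36% to 1.37% in BS008 cells.

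Upstream in the same run, the reads in control cells were mostly on GTF2IP1. The 184-base exon of set 9 had 2268 and 195 reads on GTF2IP1, 87 and 730 on GTF2IP4, and 286 and 208 on GTF2I. The sum, 2641 and 1133, had the lowest log2 ratio of the 22 sets (-1.15). Set 10, of 59 bases, had 1258 and 19 on GTF2IP1, 8 and 528 on GTF2IP4, and 182 and 147 on GTF2I, with a log2 ratio of the sum of -0.98. Set 11, of 75 bases, had 1320 and 28 on GTF2IP1, 12 and 687 on GTF2IP4, and 322 and 110 on GTF2I, with -0.93 for the sum.

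Sets 9 and 10 had the largest gains of the GTF2I share among the 22, from 10.8% to 18.4% and from 12.6% to 21.2%, although fewer reads were counted on their GTF2I rows. The next largest was set 8, of 72 bases, with 9.42% and 11.9%, where the intervals overlap (39 and 27 reads on GTF2I, 9 and 2 on GTF2IP4, 366 and 197 on GTF2IP1). Sets 12 and 16 are named here after their values were seen, to close the run. Set 12 had 487 and 95 reads on GTF2I, 9 and 497 on GTF2IP4 and 398 and 26 on GTF2IP1. Set 16 had 299 and 4 on GTF2I, 17 and 165 on GTF2IP4 and 190 and 98 on GTF2IP1. In control cells GTF2IP1 had the most reads of the 3 copies in sets 9 to 11 and GTF2I in sets 12 to 16, and in BS008 cells GTF2IP4 had the most in all of them.

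**Figure D4:**
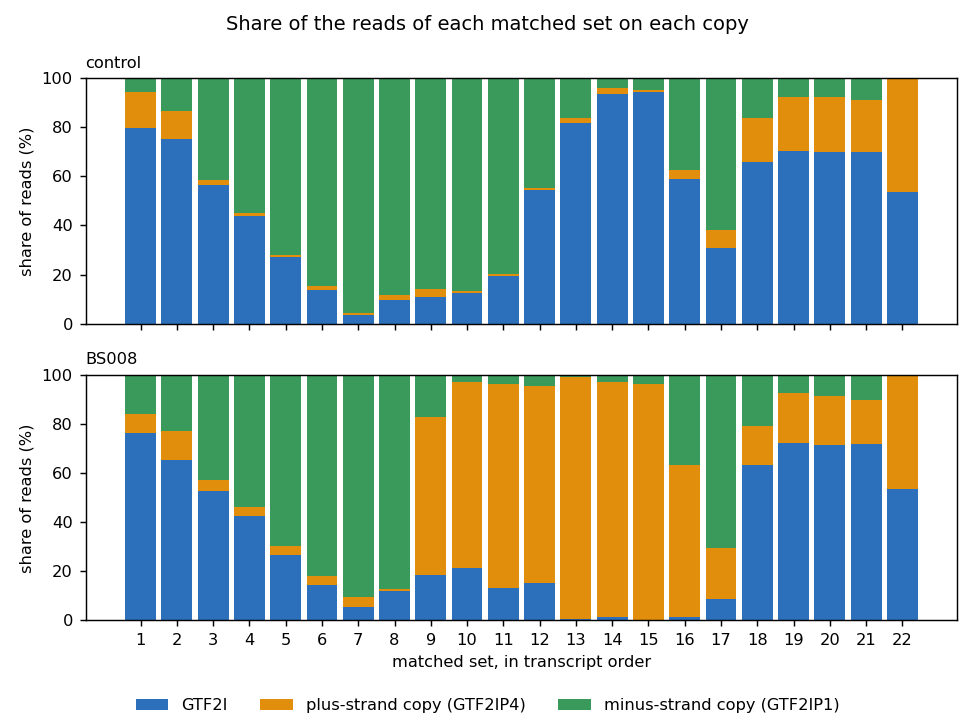
Share of the reads of each matched set (y axis, percent) on GTF2I, GTF2IP4 and GTF2IP1 for the 22 sets in transcript order (x axis), in the control library (top) and the BS008 library (bottom); set 22 has only 2 copies inside the windows. The bars differ most between the libraries in sets 9 to 16, where GTF2IP4 holds 1.84% of the reads in control and 83.1% in BS008 cells.

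Sets on either side of that run were left outside it because the share on GTF2IP4 changed by less, so their shares are given as a description. Sets 1 to 8 had 6907 reads in control and 3588 in BS008 cells (log2 ratio -0.89; -0.95 to -0.84), of which GTF2I held 31.3% and 30.0%, GTF2IP1 66.0% and 65.9%, and GTF2IP4 2.68% (2.32 to 3.09%) and 4.12% (3.52 to 4.83%). Sets 17 to 21, which have all 3 copies, had 6604 and 3251 reads (log2 ratio -0.97; -1.03 to -0.91), of which GTF2I held 66.7% and 65.8%, GTF2IP4 19.9% and 18.8%, and GTF2IP1 13.4% (12.6 to 14.3%) and 15.3% (14.2 to 16.6%). The sums over the copies were lower in each of these groups, as in sets 9 to 16.

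These pooled shares cover sets that moved apart. In 5 of the 14 sets outside the run, at least 1 copy had shares whose intervals did not overlap. GTF2IP1 held 5.67% (interval up to 7.98%) of the reads of set 1 in control and 15.8% (11.8 to 20.9%) in BS008 cells, with 30 and 39 reads while the sum went from 529 to 247. In set 7 the share of GTF2IP1 was 95.6% (93.7 to 97.0%) and 90.7% (87.2 to 93.3%), and that of GTF2IP4 1.01% and 3.97%. In sets 5 and 6 the share of GTF2IP4 was higher in BS008 cells, at 1.05% and 3.48% in set 5. Set 17 had 123 and 18 reads on GTF2I, 28 and 44 on GTF2IP4 and 246 and 148 on GTF2IP1. Sets 1, 5, 7 and 17 are named after their values were seen.

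The 184-base exon of set 6 had 281 and 154 reads on GTF2I, 30 and 41 on GTF2IP4 and 1739 and 885 on GTF2IP1 (log2 ratio of the sum -0.86), and the share on GTF2IP4 was 1.46% (1.03 to 2.08%) in control and 3.80% (2.81 to 5.11%) in BS008 cells. The 184-base exon of set 18 had 1144 and 495 on GTF2I, 309 and 124 on GTF2IP4 and 283 and 160 on GTF2IP1 (-1.08). Set 19, of 29 bases, had 1087 and 531, 339 and 151, and 118 and 52 reads on GTF2I, GTF2IP4 and GTF2IP1, and set 20, of 42 bases, had 1136 and 580, 362 and 163, and 126 and 67. Their sums gave -1.00 and -0.93. In set 20 GTF2I held 70.0% of the reads in control and 71.6% in BS008 cells. The base that differs in that exon sets GTF2IP4 apart, while GTF2I and GTF2IP1 are identical there.

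Set 22 had the most reads. GTF2I had 5193 reads in control and 2943 in BS008 cells on it, and GTF2IP4 4504 and 2539, so that the share of GTF2I was 53.6% and 53.7%. The log2 ratio of the sum was -0.77. The GTF2IP1 row of 1912 bases at 74601106 to 74603017, which crosses the edge of the window and is not a member, had 4419 and 2534 reads. The 3 rows for this exon were therefore lower by like amounts in each copy.

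An exon length shared by rows with and without a copy allows levels to be set side by side. The 184-base row without a copy had 502 reads in control and 242 in BS008 cells, while the 184-base sets summed over copies to between 949 (set 3) and 2641 (set 9) in control, and to between 484 (set 3) and 1240 (set 14) in BS008 cells. For the 29-base exons the row without a copy had 372 and 187 reads and set 19 had 1544 and 734. The sums over copies thus held more reads than the row of the same length found in GTF2I alone, in both libraries. How much of that came from RNA of the pseudogenes was not tested. Whether a read that fits several copies was counted once or on each of them is not given in the sources used here, so a sum over copies may hold a read more than once.

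Each pseudogene copy also had a first row of 420 bases that GTF2I lacks. On GTF2IP4, at 72569012 to 72569431, it had 89 reads in control and 13 in BS008 cells (log2 ratio -1.50). On GTF2IP1, at 74653040 to 74653459, it had 17 and 43 (0.69). The rows have equal length, their summed reads were 106 and 56, and the larger count was on GTF2IP4 in control and on GTF2IP1 in BS008 cells. These are the only rows of the copies that do not belong to a matched set.

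Other exon rows around the 3 windows, here called blocks, gave a comparison with no row of GTF2I in it. These rows were picked by length alone, and whether they are copies of each other was not tested. Within 100 kb of the windows, 98 rows had a length that recurs in another of the 3 blocks, and 34 of them had at least 10 reads in either library. Their sum was higher in BS008 cells, with 1483 and 2080 reads (log2 ratio 0.54). The rows around GTF2I held 27.8% (25.6 to 30.1%) of these reads in control and 21.9% (20.2 to 23.7%) in BS008 cells, those around GTF2IP4 57.0% and 58.7%, and those around GTF2IP1 15.2% (13.5 to 17.2%) and 19.4% (17.8 to 21.2%). Among these rows, 8 in 3 groups of equal length had the same count as each other in both libraries, for example 9 reads in control and 8 in BS008 cells on each of 3 rows of 244 bases.

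Rows on the strand opposite to GTF2I could share its reads, since it is not given in the sources used here that reads were counted by strand. The minus-strand row at 74113795 to 74114710 overlaps 134 bases of the 184-base row without a copy and had 402 and 194 reads, against 502 and 242 on that row. Another at 74143043 to 74143187 overlaps 64 bases of the GTF2I row of set 1 and had 420 and 183 reads, against 423 and 189. The remaining one, at 74141740 to 74141860, overlaps no GTF2I row and had 1 read in each library. Reads of the first 2 rows and of the GTF2I rows they overlap cannot be told apart.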

How the data were processed

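Huh-7 RNA was sequenced with 1 library for 0.1% DMSO and 1 for BS008. The files that the authors deposited hold raw read counts for 239322 exon rows and the matching RPKM, which recomputation from length and library total returned to within 4.7e-06. The submitters' processing notes name hg19. The aligner, the counting tool and the annotation are not given in the sources used here. Members, classes of rows and alternatives were chosen with earlier results of these data known.

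Log2 ratios of single rows and single sets were taken on CPM with a pseudocount of 0.5, and those of larger sums without it. A row entered counts past 2-fold with at least 10 reads in either library. Intervals are 95%, Wilson for shares and exact (Clopper-Pearson) for ratios of reads without the pseudocount, and cover counting error only. The primary matching of rows used exact length, and the numbered sets used lengths within 3 bases in the same order, tried as an alternative. Sets were named by most reads (8) and by the largest rise and fall of the GTF2I share (3 each), and all 12 GTF2I rows without a copy were named. Genes of similar pattern were not ranked, since 2 libraries give 1 ratio per gene. Liver markers and other genes of the pathway were not analysed here, because no annotation of hg19 was at hand. Scripts were tested on simulated data and used Python 3.11.15, pandas 2.3.3, numpy 2.4.6, scipy 1.17.1 and matplotlib 3.10.9. TMM factors came from edgeR 4.0.16 and size factors from DESeq2 1.42.0 in R 4.3.3.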

Additional observations from a re-analysis of the deposited data

How the results depend on the processing

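No paired analysis was possible because each condition has 1 library, and for the same reason no library could be left out. By exact length, the log2 ratios were -0.87 for rows without a copy and -0.93 for matched rows, with a difference of -0.056. The matched rows gave -0.88 with TMM factors, -0.89 with DESeq2 size factors and -0.89 as the median of length groups. A length group pools all matched rows of the same length and is not a numbered set. The unmatched row and the length group with the most reads were then left out. These were the GTF2I row of 1911 bases and all matched rows of 184 bases, so 49 of the 65 matched rows remained. The values were then -1.01 and -0.89, and their difference was 0.12. The share of GTF2I changed by -17.2 percentage points instead of -18.4. Matching by order gave -1.00, -0.88 and a difference of 0.12, with shares changing by -13.1 points on GTF2I, 27.3 on GTF2IP4 (36.6 by exact length) and -14.2 on GTF2IP1 (-18.2 by exact length). With the row across the window edge added, an alternative chosen after seeing the data, these were -1.00, -0.86, 0.14, -12.0, 23.8 and -11.8. Without the first GTF2I row, also chosen after seeing the data, matching by order gave -0.94 and a difference of 0.061. Runs of equal lengths moved the share of GTF2IP4 by 37.9 points (37.85). By exact length, equal weights per length group gave -25.6 points on GTF2I, 39.9 on GTF2IP4 and -14.2 on GTF2IP1. At 1.5-fold, 53 member rows were lower (18 at 2-fold), and over all rows 18306 were lower and 15150 higher. With a pseudocount of 0.1, 26 member rows were lower and 9 higher, beside 11189 and 11471 of all rows of the files. With a pseudocount of 1, the counts were 15 and 8 of the members and 3017 and 3020 of all rows. The log2 ratios of the 12 GTF2I rows without a copy, of sets 6, 8 to 11, 13 to 15, 18 to 20 and 22, and of the 2 summed classes kept their sign under the alternatives run for them, while that of the difference between the classes did not. TMM and DESeq2 factors were run for the summed classes by exact length, not for the summed classes matched by order. Sums by window or by block of sets were not run under alternatives. Nor were sets 1, 5, 7, 12, 16 and 17, the 420-base rows and the flanking rows.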
